A study of Drosophila melanogaster with 6 samples.

Results

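Many protein-coding genes of *Drosophila melanogaster* are still listed by an annotation number beginning with CG rather than by a name taken from a mutant phenotype or a known product. 163 such genes are described here. They were chosen from the deposited expression table as rows listing a single gene with a CG number, with an FPKM in *zldZnF2* of at most 1 in 3 of the value in *w1118*, where the *w1118* value had to reach 1. CG13711, CG14915 and CG16813 were left out. The rule used both expression values, so their difference describes how the genes were chosen and is not tested. The table holds 16596 loci, of which 6704 carry a CG number alone and 2213 of these were eligible by their *w1118* value. All 163 genes are annotated as protein-coding, and all matched a FlyBase gene at the deposited position.

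Polyadenylated RNA was sequenced from hand-sorted stage 5 embryos of *Drosophila melanogaster*, the stage at which the blastoderm becomes cellular. 3 samples came from embryos laid by females homozygous for *zldZnF2*, a point mutation that changes a cysteine of the second zinc finger of Zelda (ZLD). 3 samples came from *w1118*, the wild-type control strain. Embryos of both genotypes were collected by stage and not by time, and the alleles at other loci are not given in the labels. The authors deposited 1 FPKM (fragments per kilobase of transcript, scaled to the mapped fragments of the library) for each genotype, taken over its 3 samples together. The spread between samples and the depth per sample cannot be read from these values, and the authors' own per-gene test in the same table was not used here. Differences are therefore given without a test, and whether 1 sample carried a high value in *w1118* cannot be seen.

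The early fly embryo starts with mRNAs that its mother placed in the egg. ZLD is a maternally supplied DNA-binding activator that opens and activates the zygotic genome, and products of that genome then help to clear a set of maternal mRNAs. An mRNA present at stage 5 can therefore be a maternal message or come from a gene that the zygote itself transcribes. It can also come from older embryos where a collection holds any. In whole embryos, fewer cells with an mRNA and less of it per cell cannot be told apart.

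The depleted genes ran from a few abundant genes to many close to the limit of 1 FPKM. FPKM in *zldZnF2* ranged from 0 to 171.0 with a median of 0.361, and FPKM in *w1118* from 1.00 to 1010 with a median of 2.60. The median log2 ratio of *zldZnF2* to *w1118* was -2.73, with genes at 0 ranked lowest. Over the 2050 other eligible CG genes this median was -0.02, and over all 5854 loci that reached 1 FPKM in *w1118* it was -0.05. 69 of the 163 genes were at most at 1 in 10 of their *w1118* level, and 27 were listed at 0 in *zldZnF2*.

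The share of eligible CG genes that met the rule was 7.37% (163 of 2213), against 5.39% (178 of 3300) of loci that list 1 gene with another kind of symbol and 6.18% of all 5854 loci at this level. The share differed with abundance. Of the CG genes between 1 and 2 FPKM in *w1118*, 58 of 236 (24.6%, 95% Wilson interval 19.5% to 30.4%) met it. At 50 FPKM and over it was 14 of 632 (2.22%, 1.32% to 3.68%). Loci with other symbols had 18.4% (14.3% to 23.4%) and 1.37% (0.866% to 2.15%) at the same levels. The intervals cover the counting of genes only. A limit of 5 FPKM in *w1118* divided the depleted genes into 64 above it (3.85% of the CG genes at this level) and 99 below it (18.0%).

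**Figure D1:**
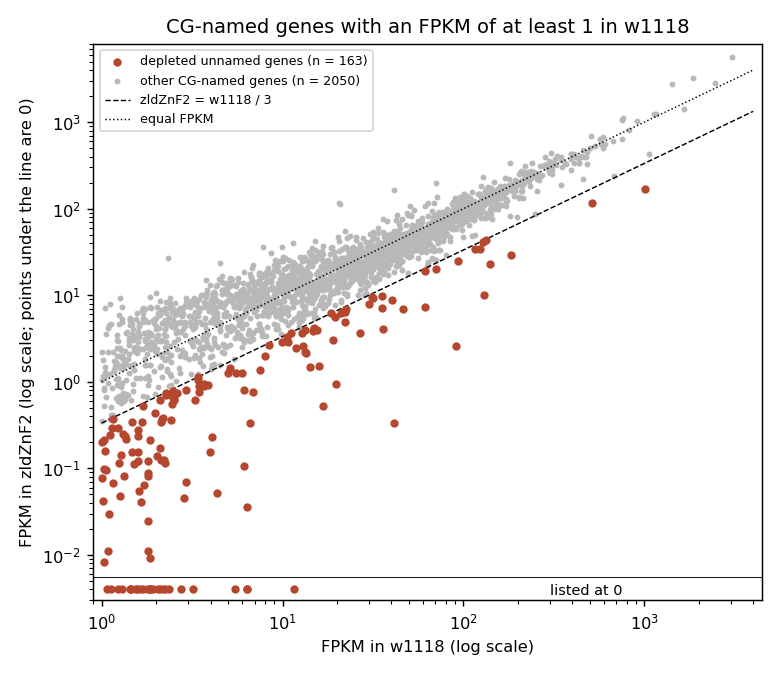
Each point is a CG-named gene with its FPKM in zldZnF2 (vertical, log scale) against its FPKM in w1118 (horizontal, log scale), 1 value per genotype, with the 163 depleted genes in red and the 2050 others in grey. The dashed line marks a ratio of 1 in 3, and the 27 genes listed at 0 in zldZnF2 are drawn under the solid line, 23 of them below 5 FPKM in w1118.

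The most abundant of these genes was *CG43725* (2L, 11075513 to 11075962 of dm6), a single-exon gene with an annotated mRNA of 450 nucleotides and only 192 coding nucleotides. It had 171.0 FPKM in *zldZnF2* and 1010 FPKM in *w1118*, a 5.91-fold lower level. *CG4570* (3R, 10856807 to 10858066), also of a single exon, had 116.7 FPKM in *zldZnF2* and 515.7 FPKM in *w1118*. Both mRNAs thus stayed above the *w1118* level of nearly every other depleted gene, since only 9 of the 163 had 100 FPKM or more in *w1118*.

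The next genes by abundance differed more widely in how much remained. *CG13712* (3L, 4709209 to 4709890) had 28.9 FPKM in *zldZnF2* and 183.7 FPKM in *w1118*. *CG8066* (3R, 14567611 to 14568847), which encodes a cystatin-like protein of the cysteine protease inhibitor type, had 22.7 FPKM in *zldZnF2* and 140.0 FPKM in *w1118*. The difference was smaller for *CG9231*, with 43.4 FPKM in *zldZnF2* and 133.8 FPKM in *w1118* (3.08-fold lower), and for *CG43659*, with 41.4 FPKM in *zldZnF2* and 128.2 FPKM in *w1118* (3.10-fold lower). *CG34266*, at 34.5 FPKM in *zldZnF2* and 123.5 FPKM in *w1118*, and *CG18269*, at 34.3 FPKM in *zldZnF2* and 115.1 FPKM in *w1118*, were 3.58-fold and 3.36-fold lower.

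*CG45087* (2R, 18536767 to 18539416) stood apart from its neighbours in abundance, with 9.97 FPKM in *zldZnF2* and 130.4 FPKM in *w1118*, a 13.1-fold lower level. Its longest annotated transcript has 2486 nucleotides, of which 81 are coding, and its exons overlap those of another gene on the same strand. Reads from the shared stretch cannot be told apart, so its value is uncertain in that respect. *CG8147* (3R, 9494801 to 9496723), now named *phurba tashi* (*phu*) and a member of the alkaline phosphatase family, was 35.0-fold lower, with 2.60 FPKM in *zldZnF2* and 91.1 FPKM in *w1118*. *CG18812* (now *Gdap2*) had 24.7 FPKM in *zldZnF2* and 93.6 FPKM in *w1118*, and *CG42762* had 19.9 FPKM in *zldZnF2* and 70.4 FPKM in *w1118*. 6 of the 12 most abundant genes have a single annotated exon.

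Among genes of at least 5 FPKM in *w1118*, the lowest ratio above 0 belonged to *CG5023* (3R, 20169435 to 20174872), which encodes a calponin family protein of the kind found in muscle. It had 0.0356 FPKM in *zldZnF2* and 6.35 FPKM in *w1118*. *CG42857* (3R, 9820514 to 9821191) was next and far more abundant, with 0.332 FPKM in *zldZnF2* and 41.2 FPKM in *w1118*, a 124.1-fold lower level. *CG15282* (2L, 14712471 to 14713298) had 0.108 FPKM in *zldZnF2* and 6.12 FPKM in *w1118*. All 3 had a smaller fraction of their *w1118* level than *CG8147*. This order rests on values near 0 in *zldZnF2*. With a pseudocount of 1 the log2 ratio of *CG5023* was -2.83 in place of -7.48 and that of *CG15282* -2.68 in place of -5.83. *CG42857* (-4.98), *CG8147* (-4.68), *CG45087* (-3.58), *CG32485* (-3.53) and *CG12560* (-3.43) then all had lower ratios than *CG5023*.

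*CG32485* (3L, 3050323 to 3051765) had 0.527 FPKM in *zldZnF2* and 16.7 FPKM in *w1118*, and *CG12560* (2L, 8008302 to 8009477) had 0.933 FPKM in *zldZnF2* and 19.8 FPKM in *w1118*. *CG10924* (now *Pepck2*; 2R, 18527430 to 18535749) encodes a phosphoenolpyruvate carboxykinase, the type of enzyme that opens gluconeogenesis, and had 0.335 FPKM in *zldZnF2* and 6.61 FPKM in *w1118*. *CG14852*, at 1.52 FPKM in *zldZnF2* and 16.0 FPKM in *w1118*, and *CG5080*, at 1.46 FPKM in *zldZnF2* and 14.1 FPKM in *w1118*, closed this group at 10.5-fold and 9.66-fold lower. At the other end of the rule, *CG11739* (now *Sfxn1-3*) and *CG32221* lay just inside it at 3.01-fold lower each. *CG8089* and *CG42674* lay just outside at 2.96-fold and 2.93-fold lower.

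**Figure D2:**
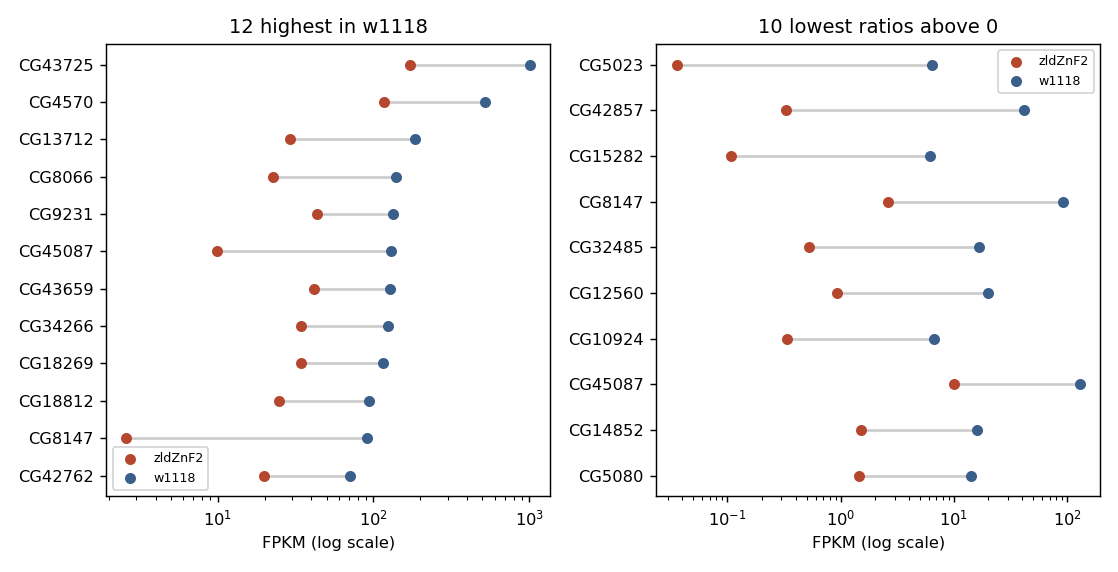
FPKM (log scale) in zldZnF2 (red) and w1118 (blue), 1 value per genotype, for the 12 depleted genes with the highest w1118 level (left) and the 10 with the lowest ratio above 0 among genes of at least 5 FPKM in w1118 (right). CG45087 and CG8147 appear in both panels, at 9.97 and 2.60 FPKM in zldZnF2.

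11 genes listed at 0 in *zldZnF2* had at least 2 FPKM in *w1118*. *CG18649* (3L, 15053568 to 15054135) had the highest *w1118* level of these, 11.6 FPKM. *CG17738* and *CG43131* had 6.37 and 6.36 FPKM in *w1118*, and *CG6933*, which encodes a protein with chitin-binding domains, had 5.46 FPKM. The other 7, *CG43349*, *CG13315*, *CG34176*, *CG34291*, *CG13731*, *CG5804* (now *Acbp5*) and *CG9336* (now *belly roll*, *bero*), lay between 2.04 and 3.18 FPKM in *w1118*. The 16 further genes listed at 0 were under 2 FPKM in *w1118*. No fold change is given for a gene listed at 0.

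Zygotic products clear one part of the maternal mRNAs and maternal factors another, and the study sorted mRNAs by lists of such decay classes that were drawn up from other embryos. Class IV holds mRNAs cleared by the zygotic pathway only, class II those cleared by the maternal pathway only, and class III those cleared maternally and transcribed again. Of the 64 depleted genes at 5 FPKM and over, 17 were in class IV (26.6%, 95% Wilson interval 17.3% to 38.5%), against 360 of 1600 other CG genes at this level (22.5%, 20.5% to 24.6%). Of the 99 at lower levels, 4 were in class IV (4.04%, 1.58% to 9.93%), against 29 of 450 (6.44%, 4.52% to 9.10%). The intervals overlapped within each level. Over all levels the share was 21 of 163 (12.9%), against 389 of 2050 (19.0%). This depended on the limit of 1 in 3. At a ratio of at most 1 in 2, class IV held 70 of 284 genes (24.6%, 20.0% to 30.0%), against 340 of the 1929 with a higher ratio (17.6%, 16.0% to 19.4%). At 5 FPKM and over, an alternative chosen after seeing the data, it held 65 of 152 (42.8%, 35.2% to 50.7%), against 312 of 1512 (20.6%, 18.7% to 22.7%).

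Classes II and III together held 1 of the 64 depleted genes at 5 FPKM and over (1.56%, 0.276% to 8.33%), against 160 of 1600 others (8.62% to 11.6%). Below 5 FPKM they held 2 of 99 (2.02%, 0.556% to 7.07%), against 87 of 450 (19.3%, 16.0% to 23.2%). No depleted gene was in class III. The 3 genes, all of class II, were *CG4570*, *CG10089*, with 0.126 FPKM in *zldZnF2* and 2.12 FPKM in *w1118*, and *CG3902*, with 0.158 FPKM in *zldZnF2* and 1.05 FPKM in *w1118*. *CG3902* encodes an acyl-CoA dehydrogenase. The other CG genes between 1 and 5 FPKM in *w1118* had a median log2 ratio of 0.64, against -0.09 for those at 5 FPKM and over. Both medians leave out the depleted genes, which raises them. These were 18.0% of the CG genes at the lower level and 3.85% at the higher. The lower level was also set by a low *w1118* value. A relation of this median to the decay classes was not tested.

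The 21 class IV genes had moderate levels and ratios. Their FPKM ranged from 0 to 24.7 with a median of 3.67 in *zldZnF2*, and from 1.07 to 93.6 with a median of 13.3 in *w1118*, and their median log2 ratio was -1.83. The 139 genes in none of the 3 classes had a median of 0.275 FPKM in *zldZnF2* and 2.43 FPKM in *w1118*, with a median log2 ratio of -3.17. The 2 groups differ in abundance, with 17 of the 21 at 5 FPKM or more in *w1118*, against 46 of the 139. Over all depleted genes the median log2 ratio was -2.18 at that level and -3.73 below it, so the 2 medians are not compared at like levels. *Gdap2* was the most abundant of class IV. *CG7601*, a short-chain dehydrogenase gene, followed with 6.96 FPKM in *zldZnF2* and 46.6 FPKM in *w1118*. 2 class IV genes, *bero* and *CG13461*, were listed at 0 in *zldZnF2*.

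47 of the 163 genes are on the study's own list of down-regulated genes, which was made from these same samples and is no independent evidence. The study set limits on the Cuffdiff p-value and fold change, and kept only genes significantly misexpressed in all replicates. The rest of the 163, *CG13712*, *CG42762* and *CG42857* among them, are not on that list, and pooled values do not show why. The list sorts the 47 by published expression into 32 maternal (68.1%), 7 zygotic (14.9%) and 8 unassigned genes (17.0%). Of the 160 other loci of 1 gene on the list that reached 1 FPKM in *w1118*, 130 were maternal (81.3%), 17 zygotic (10.6%) and 9 unassigned (5.63%). 29 of the 32 maternal genes had at least 5 FPKM in *w1118*. The maternal genes had a median of 4.94 FPKM in *zldZnF2* and 18.8 FPKM in *w1118*, and the zygotic genes of 3.27 FPKM in *zldZnF2* and 14.7 FPKM in *w1118*. The zygotic genes were *CG34266*, *CG18269*, *phu*, *CG5002*, *CG13894*, *CG14694* and *CG7298*. 91 of the 99 genes below 5 FPKM are not on the list, so their class was not known here.

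25 of the 163 genes have a name in the RefSeq annotation of Release 6. These and further genes of known family were grouped by role after their values were seen, not from a fixed list, and the same families were not counted among the other CG genes. The groups only order the values below. The 11 genes grouped under membrane transport had 0.612 to 9.37 FPKM in *zldZnF2*, against 2.11 to 61.6 FPKM in *w1118*. *MCU* (*CG18769*), the pore of the mitochondrial calcium uniporter, had 7.34 FPKM in *zldZnF2* and 61.6 FPKM in *w1118*, the largest difference in the group at 8.38-fold lower. *Prip* (*CG7777*), an aquaporin, had 3.04 FPKM in *zldZnF2* and 18.9 FPKM in *w1118*. The anion exchanger *Ae2* (*CG8177*), the choline transporter-like *Ctl2* (*CG11880*), the sideroflexin *Sfxn1-3* and the monocarboxylate transporter *chaski* (*chk*, *CG3409*) were 3.01-fold to 3.46-fold lower. The potassium channel *SLO2* (*CG42732*), *MFS12* (*CG8791*), the sulfate transporter-like *CG5002* and the ABC transporters *CG7627* and *CG31689* were 3.45-fold to 3.96-fold lower.

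The 18 genes grouped as metabolic enzymes had 0.0421 to 6.96 FPKM in *zldZnF2* and 1.02 to 91.1 FPKM in *w1118*. *phu*, *Pepck2* and the glycosyltransferase *Ugt49B1* (*CG4302*), at 0.0421 FPKM in *zldZnF2* and 1.02 FPKM in *w1118*, were the 3 genes of this group more than 19-fold lower. The sulfatase *CG18278* had 2.15 FPKM in *zldZnF2* and 13.4 FPKM in *w1118*. The lipase *CG17292* had 1.26 FPKM in *zldZnF2* and 5.95 FPKM in *w1118*. The phosphoglycerate dehydrogenase *CG6287*, first enzyme of serine synthesis, and the glucosylceramidase *CG33090* were both 3.53-fold lower. Also in this group were *Akr1B*, *Acsf2* and *PIG-L*, at 3.86-fold, 3.14-fold and 3.44-fold lower.

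The remaining groups hold small carriers and secreted binding proteins. *Acbp4* (*CG8629*) and *Acbp5*, of the family that binds long-chain acyl-CoA, had 0.0543 and 0 FPKM in *zldZnF2*, against 1.60 and 2.10 FPKM in *w1118*. *Jhbp7* (*CG11852*) and *Jhbp14* (*CG5867*), relatives of the juvenile hormone binding proteins, had 0.0407 and 0.236 FPKM in *zldZnF2*, against 1.65 and 1.59 FPKM in *w1118*. *CG7017*, *CG6933* and *CG7298* encode proteins with chitin-binding domains, as in the lining of the gut and the cuticle. They had 0, 0 and 0.227 FPKM in *zldZnF2*, against 1.82, 5.46 and 4.09 FPKM in *w1118*.

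Markers of differentiated larval tissues differed between the genotypes at the same low levels. Of the 14 muscle markers measured, 8 had at least 1 FPKM in *w1118* and 6 of these met the same ratio of 1 in 3, *Mf*, *TpnC47D*, *Mlc2*, *Tm2*, *Mhc* and *Mlp60A*. 3 of the 14 were listed at 0 in *zldZnF2* and none in *w1118*. The 6 had between 0 and 0.313 FPKM in *zldZnF2*, against 3.07 to 4.92 FPKM in *w1118*. *Act87E* and *Prm* were also higher in *zldZnF2*, at 10.6 and 1.91 FPKM, against 0.614 and 0.896 FPKM in *w1118*. The summed level of the list was 524.4 FPKM in *zldZnF2* and 541.7 FPKM in *w1118*. Without *Tm1*, a tropomyosin gene expressed in most cells, it was 19.9 FPKM in *zldZnF2* and 32.4 FPKM in *w1118*.

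Of 11 gut markers measured, 3 had at least 1 FPKM in *w1118* and all 3 met the ratio. These were *alphaTry*, *betaTry* and *Jon65Aiv*. The list summed to 0.116 FPKM in *zldZnF2* and 6.30 FPKM in *w1118*, with 6 of its genes at 0 in *zldZnF2* and 3 in *w1118*. Of 7 cuticle markers, *Cpr47Eg* and *Lcp65Ac* had at least 1 FPKM in *w1118* and met the ratio. The cuticle list summed to 1.36 FPKM in *zldZnF2* and 11.9 FPKM in *w1118*, with 2 genes at 0 in each. The shares of loci with other symbols given for muscle are the background for these counts too. For *Cpr47Eg*, at 10.1 FPKM in *w1118*, the share between 10 and 50 FPKM was 3.61%. The neuronal list summed to 0.483 FPKM in *zldZnF2* and 1.61 FPKM in *w1118*. RNA from embryos past stage 5 in 1 or more *w1118* samples would enter these values, and pooled values do not show it. The part of such RNA in the differences of the depleted genes, most of all the 99 below 5 FPKM, was not tested.

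Eggshell, fat body and testis markers were near 0 in both genotypes. Their sums were 1.69, 1.05 and 0.0771 FPKM in *zldZnF2*, against 1.30, 0.602 and 0.0916 FPKM in *w1118*. Only 1 gene of these lists, the eggshell gene *Cp18*, had at least 1 FPKM in *w1118*, so the ratio could be read for it alone. *Cp18* had 1.14 FPKM in *zldZnF2* and 1.20 FPKM in *w1118* and did not meet it. The blastoderm markers were present in both genotypes, which does not show whether older embryos were among those collected. All 11 measured (*eve*, *ftz* and *Kr* among them) had at least 1 FPKM, and they summed to 1513 FPKM in *zldZnF2* and 1270 FPKM in *w1118*. None met the ratio, which can mark lower values only. *hb* and *tll* were lower in *zldZnF2* and the rest higher, *ftz* among them with 211.2 FPKM in *zldZnF2* and 108.6 FPKM in *w1118*. Of the 7 genes listed as maternal germ plasm markers, *bcd* is the maternal anterior determinant and not a germ plasm component. The 7 summed to 169.9 FPKM in *zldZnF2* and 254.4 FPKM in *w1118*. They did not all differ in one direction. *bcd* alone met the ratio, with 9.22 FPKM in *zldZnF2* and 37.8 FPKM in *w1118*. *tud*, a germ plasm component, was higher in *zldZnF2*, with 8.25 FPKM there and 2.19 FPKM in *w1118*.

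The depleted genes had a simpler annotated structure than the other eligible CG genes. Their longest mRNA had a median of 1268 nucleotides, against 1668 nucleotides for the others, and their coding sequence a median of 786 nucleotides, against 1152. 37 of 163 (22.7%, 95% Wilson interval 16.9% to 29.7%) had a single annotated exon, against 253 of 2045 others (12.4%, 11.0% to 13.9%). Within levels, the shares were 25.3% (17.7% to 34.6%) and 12.5% (9.75% to 15.9%) below 5 FPKM in *w1118*. At 5 FPKM and over they were 18.8% (11.1% to 30.0%) for the depleted genes and 12.3% (10.8% to 14.0%) for the others, with overlapping intervals. The 12 single-exon depleted genes at 5 FPKM and over had a median of 18.0 FPKM in *zldZnF2* and 75.5 FPKM in *w1118*.

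Exons of 30 of the 163 depleted genes (18.4%, 13.2% to 25.1%) overlapped an exon of another annotated gene by at least 1 base, against 977 of 2045 others (47.8%, 45.6% to 49.9%). Below 5 FPKM in *w1118* the shares were 17.2% (11.0% to 25.8%) against 46.2% (41.6% to 50.8%). At 5 FPKM and over they were 20.3% (12.3% to 31.7%) against 48.2% (45.8% to 50.7%). These levels match *w1118* only. Below 5 FPKM the median in *zldZnF2* was 0.124 FPKM for the depleted genes and 3.58 FPKM for the others. Whether reads from an overlapping gene changed which genes met the rule was not tested. In 26 of the 30 the overlapping gene lies on the opposite strand. The library kit named in the labels does not mark strand, so reads from such pairs cannot be told apart and the values of all 26 are uncertain in that respect. Of the genes named here these are *MCU*, *MFS12*, *CG7601*, *CG18278*, *CG17292*, *Ugt49B1*, *CG3902*, *Acbp4*, *CG34291*, *CG13102*, *CG14852* and *CG31313*. In the rest of the 30, *CG45087* and *chk* among them, the overlapping gene lies on the same strand. Reads from the shared stretch cannot be told apart there either, so these values are uncertain too. The median log2 ratio was -2.74 over the 30 overlapping genes and -2.67 over the 133 without overlap. 59 of the 163 genes, *CG13712*, *CG34266*, *CG42762* and *CG18649* among them, share the interval of their locus with further rows of the table. This was so for 1068 of the 2050 other CG genes.

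**Figure D3:**
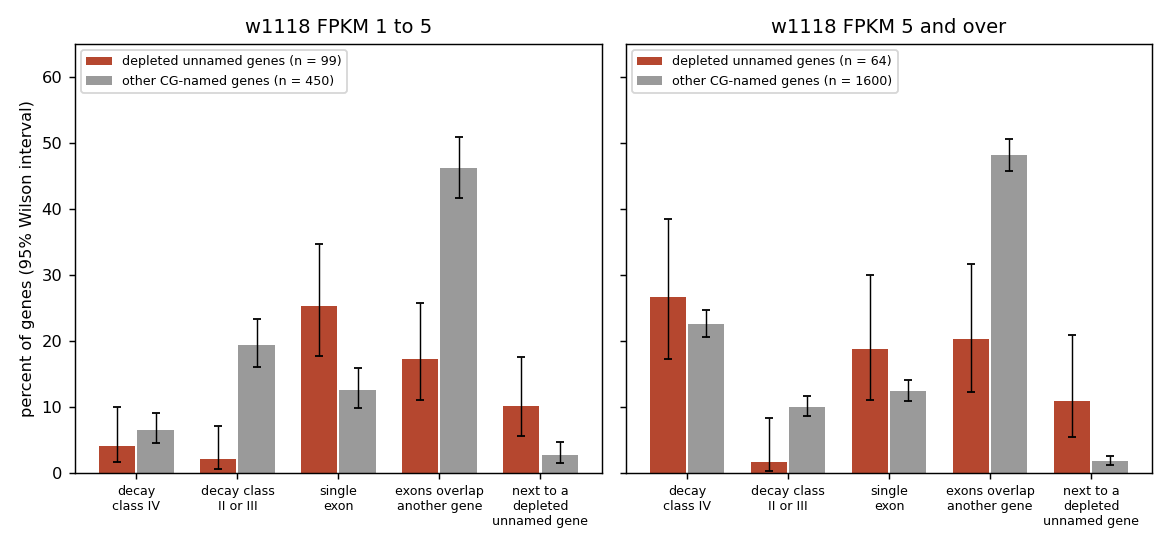
Percent of depleted unnamed genes (red) and other CG-named genes (grey) with each annotated feature, for genes of 1 to 5 FPKM in w1118 (left, 99 and 450 genes) and of 5 FPKM and over (right, 64 and 1600 genes), with 95% Wilson intervals that cover the counting of genes only. Structure and position could be read for 448 and 1597 of the other genes. Class IV intervals overlap, while exon overlap is below 21% in the depleted genes and above 46% in the others.

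The genes were spread over all 4 large autosomal arms, with 42 on 2L (25.8%), 38 on 2R (23.3%), 47 on 3L (28.8%) and 36 on 3R (22.1%). The other eligible CG genes had 21.4%, 23.8%, 24.6% and 30.2% on these arms. All 2716 loci of the X, the Y and chromosome 4 are listed at 0 in both genotypes, among them 1150 with a CG number, so no gene there could be chosen. These zeros say nothing of whether the mRNAs were present.

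17 of the 163 genes (10.4%, 6.61% to 16.1%) lay next to another depleted CG gene in the order of protein-coding genes. Among the other eligible CG genes, 40 of 2045 (1.96%, 1.44% to 2.65%) had a depleted CG gene next to them. The 17 formed 7 runs, 5 of 2 genes and 2 longer ones. The longest run, on 3R from 14564323 to 14568847, held *CG8087*, *CG14852*, *CG31313* and *CG8066*. The 4 genes had 0.156, 1.52, 4.87 and 22.7 FPKM in *zldZnF2*, against 3.96, 16.0, 22.1 and 140.0 FPKM in *w1118*, in that order along the arm. *CG31313* and *CG8066* both encode cystatin-like proteins. *CG14852* overlaps *CG31313* on the opposite strand, and sharing of reads between the related genes is that of the authors' counting.

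A run of 3 on 2L from 773547 to 779655 held *CG12506*, *CG13946* and *CG13947*. All 3 were listed at 0 in *zldZnF2*, against 1.13, 1.85 and 1.46 FPKM in *w1118*. Of the pairs, *CG4570* and *CG14694* on 3R (10856807 to 10859813) were the most abundant. *CG14694* had 1.37 FPKM in *zldZnF2* and 7.48 FPKM in *w1118*, with its neighbour's values given above. The pair *CG7017* and *CG6933* on 3L (20210292 to 20220420), of the chitin-binding genes, was listed at 0 in *zldZnF2*.

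*CG42762* was the only abundant gene of its pair on 2L (8143401 to 8145107). Its neighbour *CG42763* had 0.116 FPKM in *zldZnF2* and 2.23 FPKM in *w1118*. The pair *CG9568* and *CG13102* on 2L had 0.0479 and 0.0244 FPKM in *zldZnF2*, against 1.26 and 1.80 FPKM in *w1118*. *CG30457* and *CG10953* on 2R had 0 and 0.361 FPKM in *zldZnF2*, against 1.80 and 2.43 FPKM in *w1118*.

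**Figure D4:**
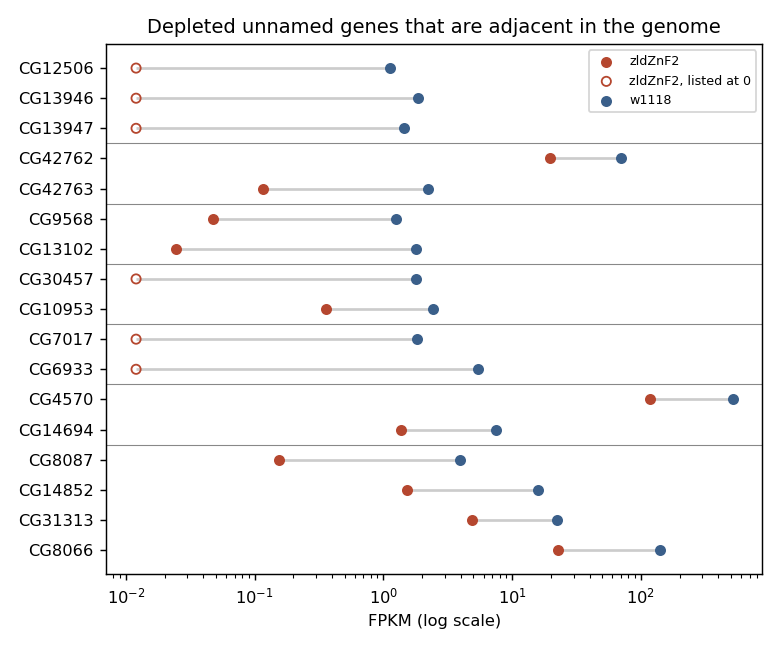
FPKM (log scale) in zldZnF2 (red; open circles are listed at 0 and drawn at the left edge) and w1118 (blue), 1 value per genotype, for the 17 depleted genes that lie next to one another, with lines between the 7 runs. Genes of 1 run span levels in w1118 from 3.96 to 140.0 FPKM on 3R but only from 1.13 to 1.85 FPKM in the run of 3 on 2L.

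The loci beside the depleted genes were also read with depleted CG genes left out. This removes the depleted neighbours described above before any ratio is read, so it cannot show how far depletion extends to neighbours. The loci that remained had slightly lower ratios than those beside the other eligible CG genes. The nearest locus of a single gene on each side that was not itself a depleted CG gene, at 1 FPKM or more in *w1118*, had a median log2 ratio of -0.13 over 326 neighbours. Beside the other eligible CG genes it was -0.03 over 4096 neighbours. A locus was counted once for each gene it lay beside. The 326 and the 4096 can therefore hold the same locus more than once and are not numbers of distinct loci. 15 of the 326 (4.60%) met the ratio of 1 in 3, against 134 of 4096 (3.27%). The log2 ratio was below 0 in 59.5% of the 326, against 52.7% of the 4096. These ratios come from the same comparison as the rule and are given as a description.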

How the data were processed

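The authors worked in Galaxy: single-end reads were trimmed and filtered, aligned with RNA-STAR to the dm6 assembly, and used to assemble transcripts with Cufflinks, and Cuffdiff compared the genotypes (the submitters' notes also name TopHat). They deposited 1 table with 1 FPKM per genotype and locus over 3 samples each; normalization and strand options are not given in the sources used here. Its other columns hold the authors' fold change, test statistic, p-value, q-value and call, which were not used. Depth per sample is unknown, so no detection floor is given.

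From the FPKM values the ratio of *zldZnF2* to *w1118* was computed without a pseudocount. Positions and structures come from Ensembl release 115 (1-based, longest mRNA of a gene), current names from RefSeq. Decay classes were matched by CG number or FlyBase identifier. Genes named are the 12 most abundant, the 10 lowest ratios above 0 at 5 FPKM or more in *w1118*, those listed at 0 with at least 2 FPKM in *w1118*, neighbouring pairs, class II and III genes and those nearest the limit. Genes named by protein family or as examples were chosen after their values were seen. Members, lists and rules were chosen with earlier results of these data known. Python 3.11.15, NumPy 2.4.6, pandas 2.3.3, SciPy 1.17.1 and Matplotlib 3.10.9 were used. Alternatives were other ratio limits, *w1118* minimums, a pseudocount of 1, centring on the median, shared loci and test status.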

Additional observations from a re-analysis of the deposited data

How the results depend on the processing

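The number of depleted genes followed the limits chosen. It was 284 at a ratio of at most 1 in 2, 99 at 1 in 5, 64 with a *w1118* minimum of 5 FPKM and 509 with a minimum of 0.1 FPKM. With a pseudocount of 1 it was 65, made up of 53 of the 64 genes at 5 FPKM and over and 12 of the 99 below, so the set below 5 FPKM rests on small values. The median log2 ratio of -2.73 became -1.45 with a pseudocount of 1, -2.18 with a *w1118* minimum of 5 FPKM, -2.72 after centring and -2.43 without genes at 0. The share in class IV of 12.9% became 26.6% with a *w1118* minimum of 5 FPKM and 24.6% at a ratio of at most 1 in 2, against 17.6% of the CG genes with a higher ratio. With both, chosen after seeing the data, it was 42.8%, against 20.6%. The median log2 ratio of neighbouring loci became -0.17 for neighbours of at least 5 FPKM in *w1118* and -0.12 with a pseudocount of 1. Centring gave 161 genes, loci of several CG genes 169 and loci with test status OK 163. Over the 33 named genes with a log2 ratio, a pseudocount of 1 moved the ratio towards 0 by 0.01 to 4.76, which changed their order. Promoter motifs and protein identity were planned and not run, since no sequence was used here. Leaving out samples could not be done because each value pools 3 samples. No paired analysis was possible because the columns carry no replicate.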
